A study of Mus musculus with 8 samples.

Results

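The genes described here are 10 regulators of the G1 phase of the cell cycle, the D-type cyclins Ccnd1, Ccnd2 and Ccnd3, the E-type cyclins Ccne1 and Ccne2, and the cyclin-dependent kinase (CDK) inhibitors Cdkn1a, Cdkn1b, Cdkn2a, Cdkn2b and Cdkn2c. They were followed through every non-control probe whose RefSeq accession matched one of these symbols, which gave 15 of the 39429 probes of the array, for 10 of 20021 named genes. R1 is a line of mouse embryonic stem cells. All samples were R1 cells differentiated as embryoid bodies, aggregates in which the cells leave pluripotency, and total RNA was taken 48 h after transfection. The Control group had 3 arrays of cells given a control siRNA, and the groups siRNA 1 and siRNA 2 had 3 and 2 arrays of cells given 1 of 2 siRNAs against CnAb1, a splice variant of the calcineurin catalytic subunit encoded by Ppp3cb. Control cells thus went through the same transfection and differentiation. Nothing in the labels describes the replicates as separate cultures. The p-values therefore speak only for the variation among these 8 samples, part of which may be technical.

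D-type cyclins bind CDK4 and CDK6 and begin the phosphorylation of the retinoblastoma protein, and E-type cyclins with CDK2 complete it, which frees E2F transcription factors to start S phase. The INK4 inhibitors, encoded by Cdkn2a, Cdkn2b and Cdkn2c, bind CDK4 and CDK6, while the CIP/KIP inhibitors p21 (Cdkn1a) and p27 (Cdkn1b) act mainly on cyclin-CDK2 complexes. Mouse embryonic stem cells are known for a short G1 phase with abundant cyclin E and little D-type cyclin and inhibitor, and G1 lengthens as they differentiate.

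Promoter windows are shown for 4 of these genes, Cdkn2b, Cdkn1a, Ccne1 and Cdkn2a. The first 3 have probes that set the same 3 arrays apart, as described further on. For Cdkn1a and Ccne1 this holds for 1 of their 2 probes. It also holds for 1 Ccnd3 probe, and the Ccnd3 windows are not printed. Cdkn2a is the neighbour of Cdkn2b on chromosome 4. RefSeq gave 11 windows, of 250 bases before to 50 bases after a start site, for 7 of the 10 genes, in build GRCm38.p6. Capitals mark matches, on either strand, to the GC box GGGCGG, the cyclic AMP response element TGACGTCA and, for E2F, the letters TTTCCCGC. The Cdkn2b window is chr4:89310983-89311282 on the minus strand, the Cdkn1a window chr17:29093519-29093818 on the plus strand, the Ccne1 window chr7:38107441-38107740 on the minus strand, and the Cdkn2a window, at the upstream of its 2 start sites, chr4:89294570-89294869 on the minus strand.
Cdkn2b: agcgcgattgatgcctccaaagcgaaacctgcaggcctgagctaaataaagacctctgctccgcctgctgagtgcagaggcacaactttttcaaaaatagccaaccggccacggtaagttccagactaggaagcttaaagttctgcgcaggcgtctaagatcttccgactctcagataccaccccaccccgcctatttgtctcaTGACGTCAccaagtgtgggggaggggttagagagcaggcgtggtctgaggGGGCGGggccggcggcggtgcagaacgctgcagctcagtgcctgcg
Cdkn1a: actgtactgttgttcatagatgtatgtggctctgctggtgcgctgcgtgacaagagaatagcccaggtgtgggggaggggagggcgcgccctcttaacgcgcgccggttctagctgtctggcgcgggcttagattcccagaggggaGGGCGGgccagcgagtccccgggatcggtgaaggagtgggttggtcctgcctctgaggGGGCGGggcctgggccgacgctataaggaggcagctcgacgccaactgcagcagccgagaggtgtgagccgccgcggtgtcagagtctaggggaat
Ccne1: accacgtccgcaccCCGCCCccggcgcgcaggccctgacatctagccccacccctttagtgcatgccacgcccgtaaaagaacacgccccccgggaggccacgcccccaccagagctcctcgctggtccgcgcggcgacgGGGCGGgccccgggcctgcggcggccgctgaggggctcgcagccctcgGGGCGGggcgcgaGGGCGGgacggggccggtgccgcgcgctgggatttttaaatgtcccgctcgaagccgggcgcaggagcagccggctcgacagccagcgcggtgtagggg
Cdkn2a: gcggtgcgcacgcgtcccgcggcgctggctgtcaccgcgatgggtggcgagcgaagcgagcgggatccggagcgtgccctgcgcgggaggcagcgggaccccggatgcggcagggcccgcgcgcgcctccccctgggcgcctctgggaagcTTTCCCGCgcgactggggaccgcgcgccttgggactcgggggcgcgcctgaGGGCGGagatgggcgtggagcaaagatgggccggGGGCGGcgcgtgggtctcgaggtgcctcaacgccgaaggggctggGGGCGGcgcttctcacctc
The Cdkn2b window held the cyclic AMP response element 46 bases before its start site, a match found in 1.79% of all 32851 windows and in 1 of the 11 of these genes. The Cdkn2a window held the E2F letters 99 bases before its start, which 1 of the 11 windows did. The E2F search took TTTCCCGC, TTTCGCGC, TTTGCCGC and TTTGGCGC together, and 2.27% of all windows matched one of them. GC boxes stood in 9 of the 11 windows and in 35.7% of all windows. The Ccne1 window had 4 of them, the furthest 236 bases before the start, and the Cdkn1a window had 2, at 104 and 46 bases before it. RefSeq gave 2 windows each for Ccnd3, Cdkn1a, Cdkn2a and Cdkn2c, and the second Cdkn1a window, not printed, had 0 GC boxes and 54.7% G or C. The E-box CACGTG was in 1 of the 11 windows and 7.15% of all, the AP-1 letters TGAGTCA in 0 and 5.20%, and TATAAA, sought on the sense strand alone, in 0 and 8.32%. These 4 windows were rich in G and C, with 57.7% G or C in that of Cdkn2b, 64.7% in Cdkn1a, 76.0% in Ccne1 and 77.0% in Cdkn2a, against a median of 52.7% over all windows. A match describes letters and is no evidence of binding.

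All values below are log2 of the processed signal minus log2 of that array's 75th percentile, so 0 is the signal below which 75% of an array's spots lie, and values of different probes are not comparable with each other. The 8 arrays had 43020 non-control spots each, of which 68.0% to 75.1% were well above background and 0 were saturated, and the 75th percentile of the signal was 838 to 1031. The arrays lay on 3 slides. Every group's replicate 1 was on slide 1, Control 2 shared slide 2 with siRNA 1 replicate 3, and Control 3 shared slide 3 with replicate 2 of both siRNAs. On each slide Control, siRNA 1 and siRNA 2 occupied the same respective positions, so position and group cannot be told apart. The 1 probe matched to Ppp3cb does not show which splice variant it reads. Its values were 0.75, 0.52 and 0.62 in Control, 0.18, 0.39 and 0.61 in siRNA 1 and 0.42 and 0.62 in siRNA 2, so 5 of 5 siRNA arrays lay under the Control mean of 0.63, with overlap between the groups (difference of the mean of the 5 siRNA arrays from Control of -0.19, exact two-sided permutation p = 0.143). The probe therefore does not check the knockdown of CnAb1. Of 12 pluripotency markers, 12 were well above background on all 8 arrays, as were 6 of 8 primitive streak and mesoderm markers and 9 of 11 endoderm markers. For fibroblast feeder cells 8 of 12 markers were well above background on all 8 arrays, Prrx1 was so on 0, and the list's summed level was 2.17 to 2.32 in Control, 2.02 to 2.32 in siRNA 1 and 2.25 to 2.26 in siRNA 2. This sum follows the brightest marker, Thy1, most. The mean deviation of the 9 tested feeder markers from their own means over the 8 arrays was 0.19 to 0.21 in Control. It was -0.34 to 0.12 in siRNA 1 and -0.23 to 0.0067 in siRNA 2. Fap, 1 of the 9 and well above background on 3 arrays, read -5.69 to -5.43 in Control and -7.81 to -6.39 on the siRNA arrays. Col6a1, well above background on 8, read -2.20 to -1.78 in Control and -2.85 to -2.46 on the siRNA arrays. Other markers of the list overlapped. Dcn read -2.17 to -1.44 in Control and -1.78 to -1.26 on the siRNA arrays, and Thy1 1.00 to 1.32 and 1.08 to 1.41. The part of feeder cells in the members' differences was not tested. The summed endoderm level was 2.38 to 3.42 in Control, 2.48 to 3.20 in siRNA 1 and 1.77 to 1.81 in siRNA 2, and the summed mesoderm level was 2.00 to 2.63, 1.42 to 2.09 and 1.39 to 1.43.

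Of the 15 probes, 14 passed the filter, which asked for a signal well above background on all arrays of 1 group or more, and were tested. The 1 left out was the only Ccne2 probe, which was not well above background on any of the 8 arrays. No difference between the siRNAs and Control passed the test for any of these genes. In limma's fit over all 27391 tested probes, 0 of 14 member probes passed a Benjamini-Hochberg adjusted p of 0.05 for the mean of both siRNAs against Control, and the background was 0%, since 0 of all tested probes passed (smallest adjusted p in that fit, 0.372). The same held for siRNA 1 against Control, siRNA 2 against Control and siRNA 2 against siRNA 1, each again with 0 of 14 members against 0% of all probes, where the smallest adjusted p of any probe was 0.409, 0.365 and 0.287. At an unadjusted p under 0.05 the 14 members again gave 0 in this fit in each of the 4 comparisons, where the background was 3.49% of all probes with both siRNAs pooled, 3.46% in the siRNA 1 comparison, 3.27% in that of siRNA 2, and 3.41% between the siRNAs. Under the alternative settings, 27 of 1086 fits of member probes, from 8 probes, had an unadjusted p under 0.05, and 0 passed the adjusted threshold. As background, the alternatives with all 8 arrays and 27391 probes had 589 to 3305 of all probes under 0.05 in a comparison. Several of the 27 came from array weights, where 2233 to 3305 of all probes were under 0.05. Others came from fits with fewer arrays, which that range does not cover. Among the 27 was Ccnd2 at -0.39 for both siRNAs without Control 2, where 1651 of all 27391 probes were under 0.05. Cdkn2a probe 2 reached 0.71 for siRNA 2 against siRNA 1 without the arrays of slide 1, which leaves siRNA 2 with 1 array. The 5 siRNA arrays lay above all 3 Control arrays for 0 of 14 members and for 2.34% of all probes, and below all 3 for 0 of 14 members and for 0.994% of all probes. The members' median difference for both siRNAs was 0.05, and their median absolute difference was 0.17 against 0.075 over all probes. The intervals do not exclude differences of some size, as the plot of differences shows. RNA was taken from whole cultures, so fewer cells of a type and less RNA per cell cannot be told apart.

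**Figure D1:**
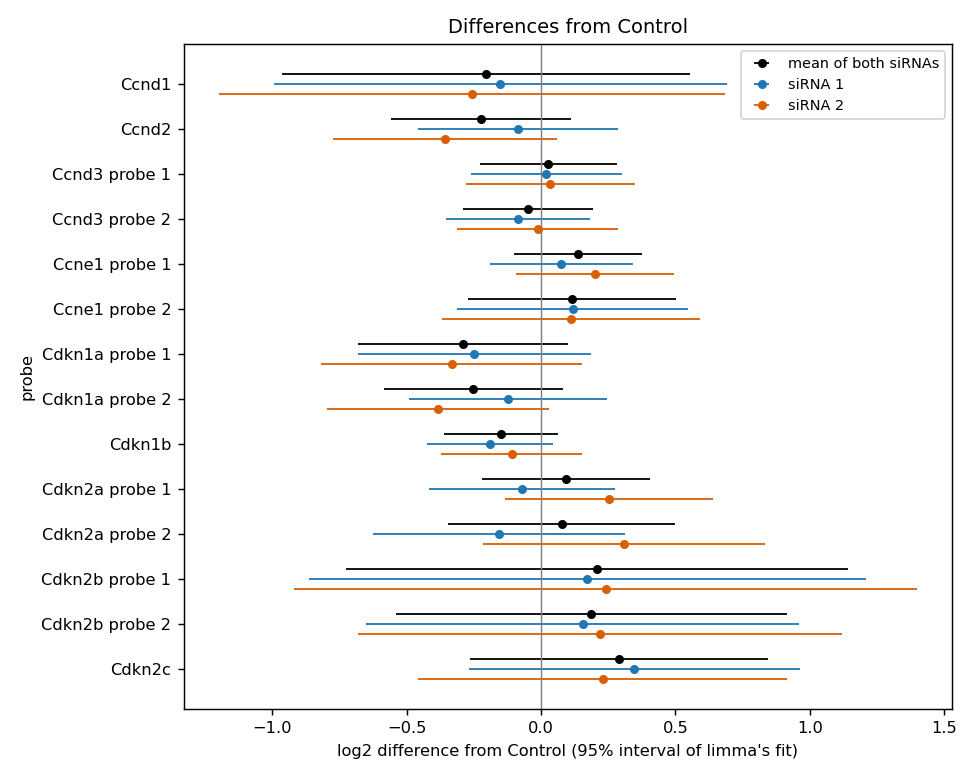
Difference from Control on the log2 scale (horizontal axis) for the 14 tested probes of G1 cyclins and CDK inhibitors, for the mean of both siRNAs, siRNA 1 and siRNA 2, with limma's 95% confidence intervals as lines. Every interval includes 0, and the widest belong to Ccnd1 and Cdkn2b.

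Ccnd1 encodes cyclin D1, the D-type cyclin that mitogens induce in many cell types. Its probe read 1.95, 0.91 and 1.64 in Control, 0.78, 1.52 and 1.74 in siRNA 1, and 0.89 and 1.60 in siRNA 2. Control 1 was the highest array and siRNA 1 replicate 1 the lowest, and arrays of all 3 groups stood at both the high and the low end. The means were 1.50 ± 0.53 (SD, n = 3) in Control, 1.35 ± 0.50 (SD, n = 3) in siRNA 1 and 1.24 ± 0.50 (SD, n = 2) in siRNA 2. The difference of both siRNAs from Control was -0.20 (SE 0.32, 95% interval -0.96 to 0.56), smaller than the spread within each group, with adjusted p = 0.99997 in limma's fit and p = 0.464 in the exact two-sided permutation test over 56 splits, whose smallest possible p is 0.0357. Here and below that test takes the mean of all siRNA arrays, for Ccnd1 -0.19 from Control, while limma's difference weighs both siRNAs equally. Within slide 1 siRNA 1 and siRNA 2 differed from Control by -1.17 and -1.06, within slide 2 siRNA 1 differed by 0.83, and within slide 3 the differences were -0.11 and -0.038. Without the arrays of slide 1 the difference turned to 0.34, and without Control 1 alone it was 0.021.

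Ccnd2 encodes cyclin D2. Its values were -0.56, -1.06 and -0.55 in Control, -0.98, -0.77 and -0.68 in siRNA 1, and -1.02 and -1.14 in siRNA 2. The siRNA 2 arrays were low, but Control 2 lay among them. The group means were -0.72 ± 0.29 (SD, n = 3), -0.81 ± 0.15 (SD, n = 3) and -1.08 ± 0.09 (SD, n = 2). Against Control, siRNA 2 differed by -0.36 (SE 0.18, 95% interval -0.775 to 0.058) and siRNA 1 by -0.09 (SE 0.16), and siRNA 2 stood -0.27 from siRNA 1 (SE 0.18), none past the threshold. For both siRNAs the difference was -0.22 (SE 0.14), which became -0.39 without Control 2 and -0.14 without Control 1 or without Control 3. Within slides, siRNA 2 differed from Control by -0.46 on slide 1 and -0.59 on slide 3. For siRNA 1 the differences were -0.42 on slide 1, 0.37 on slide 2 and -0.21 on slide 3. The summed endoderm level given above was also lower in both siRNA 2 arrays than in the other 6, and its part in this and in the other differences of siRNA 2 was not tested.

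Ccnd3 encodes cyclin D3 and had 2 probes of different RefSeq transcripts. Probe 1 read 3.63, 3.90 and 3.54 in Control, 3.85, 3.69 and 3.58 in siRNA 1, and 3.74 and 3.70 in siRNA 2. All 5 siRNA arrays lay within the Control range, and the difference was 0.027 (SE 0.11, 95% interval -0.23 to 0.28). Probe 2 read 2.01, 2.30 and 2.02 in Control, 2.08, 2.10 and 1.90 in siRNA 1, and 2.02 and 2.17 in siRNA 2, with a difference of -0.05 (SE 0.10). The signs of both differences were opposite, and each was within the spread between arrays.

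Cyclin E1, encoded by Ccne1, is the E-type cyclin whose probes were above background here. Its probe 1 read 5.34, 5.50 and 5.26 in Control, 5.63, 5.33 and 5.37 in siRNA 1, and 5.60 and 5.53 in siRNA 2. Both siRNA 2 arrays and 1 siRNA 1 array lay above all Control arrays, and the other 2 siRNA 1 arrays lay among them. The difference for both siRNAs was 0.14 (SE 0.10, 95% interval -0.10 to 0.38, exact two-sided permutation p = 0.214), and for siRNA 2 it was 0.20 (SE 0.13). Probe 2 read 0.41, 0.94 and 0.62 in Control, 0.96, 0.65 and 0.72 in siRNA 1, and 1.01 and 0.53 in siRNA 2. Its difference was 0.11 (SE 0.16), and it put the arrays in another order than probe 1 did, since siRNA 2 replicate 2 was high on probe 1 and low on probe 2. Without the arrays of slide 1 the difference of probe 2 turned to -0.18. The Ccne2 probe, for cyclin E2, has no level above background to compare.

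**Figure D2:**
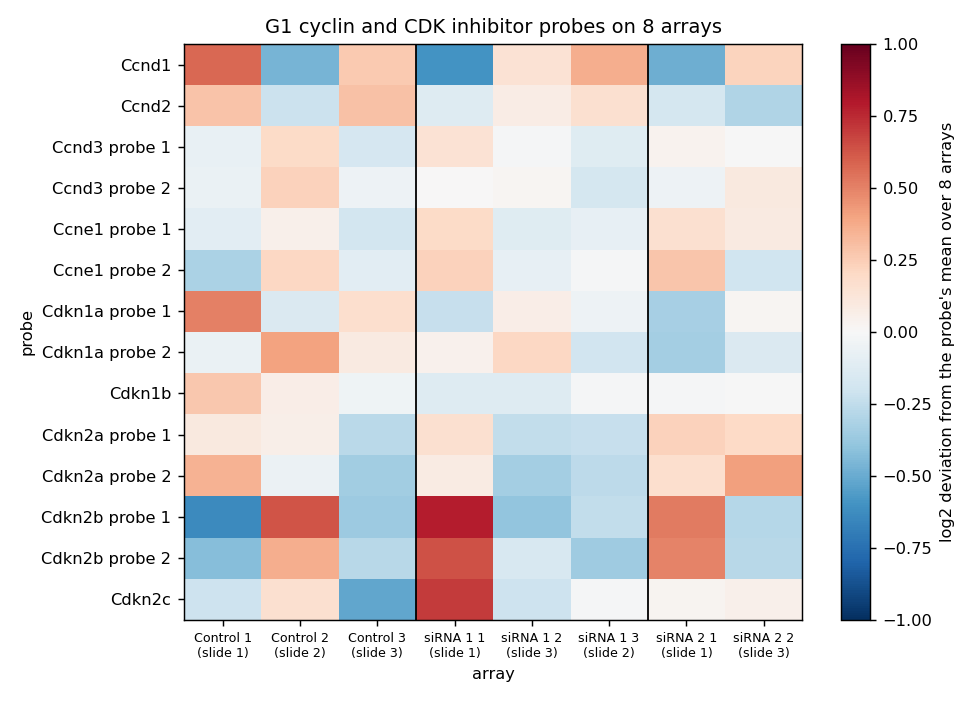
Deviation of each tested probe (rows) from its own mean over the 8 arrays (columns, with the slide of each array), on the log2 scale, with red above and blue below that mean and vertical lines between the groups. Cdkn2b is above its mean on Control 2, siRNA 1 replicate 1 and siRNA 2 replicate 1, where Ccnd1 is below its own.

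Among the CIP/KIP inhibitors, Cdkn1a encodes p21, a target gene of p53. Probe 1 is printed as 10 spots on each array, of which 9 were used on siRNA 1 replicate 1, and read 2.13, 1.49 and 1.80 in Control, 1.40, 1.70 and 1.58 in siRNA 1, and 1.30 and 1.65 in siRNA 2. All 5 siRNA arrays lay below the Control mean, but Control 2 was lower than 3 of them, so the groups overlapped. The means were 1.81 ± 0.32 (SD, n = 3) in Control, 1.56 ± 0.15 (SD, n = 3) in siRNA 1 and 1.47 ± 0.25 (SD, n = 2) in siRNA 2. The difference for both siRNAs was -0.29 (SE 0.17, 95% interval -0.68 to 0.10), with adjusted p = 0.99997 in limma's fit, p = 0.179 in the exact permutation test over all splits, and p = 0.222 when Control was permuted within slides, where the smallest possible p is 0.111. The spots of this probe differed by an SD of at most 0.0517 within an array, against an SD of 0.260 among the 8 array values.

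The slides did not give the same picture of Cdkn1a. On slide 1 siRNA 1 and siRNA 2 differed from Control by -0.73 and -0.84, on slide 2 siRNA 1 differed by 0.09, and on slide 3 the differences were -0.10 and -0.15. Without the arrays of slide 1 the difference of both siRNAs from Control was 0.0011, and without Control 1 alone it was -0.13, against -0.45 without Control 2. Probe 2, of another RefSeq transcript and dimmer, read -4.25, -3.78 and -4.09 in Control, -4.14, -3.98 and -4.38 in siRNA 1, and -4.52 and -4.33 in siRNA 2. Both siRNA 2 arrays were below all Control arrays, by -0.38 on average (SE 0.18, 95% interval -0.80 to 0.030), and did not pass the threshold. The siRNA 1 replicate 3 array was also below all Control arrays. With normexp and quantile normalization the difference of siRNA 2 from Control was -0.13. For both siRNAs the difference was -0.25 (SE 0.14), and -0.12 without Control 2 or with normexp and quantile normalization. On probe 2 Control 2 was the highest array, while on probe 1 it was the lowest Control array.

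Cdkn1b encodes p27, and its probe had the smallest spread within groups of the 14. It read 1.05, 0.84 and 0.74 in Control, 0.65, 0.65 and 0.76 in siRNA 1, and 0.76 and 0.77 in siRNA 2. All 5 siRNA arrays lay under the Control mean, and Control 3 lay among them. The means were 0.87 ± 0.16 (SD, n = 3), 0.69 ± 0.068 (SD, n = 3) and 0.77 ± 0.0052 (SD, n = 2), and the difference of both siRNAs from Control was -0.15 (SE 0.09, 95% interval -0.36 to 0.062, exact two-sided permutation p = 0.143). Without Control 1 it was -0.064.

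Among the INK4 inhibitor genes, Cdkn2a encodes p16 and, from an upstream first exon and another reading frame, the p53 activator p19Arf. Both of its probes carried the same RefSeq accession. Probe 1 read 1.12, 1.08 and 0.76 in Control, 1.18, 0.77 and 0.79 in siRNA 1, and 1.25 and 1.22 in siRNA 2. The siRNA 2 arrays were the 2 highest, siRNA 1 replicate 1 came next, and siRNA 1 replicates 2 and 3 were low with Control 3. Probe 2 read -2.51, -2.91 and -3.21 in Control, -2.78, -3.20 and -3.12 in siRNA 1, and -2.69 and -2.45 in siRNA 2. Here siRNA 2 replicate 2 was highest, followed by Control 1.

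On probe 1 of Cdkn2a siRNA 2 differed from Control by 0.25 (SE 0.16, 95% interval -0.14 to 0.64) and from siRNA 1 by 0.32 (SE 0.16, 95% interval -0.066 to 0.71). On probe 2 the same differences were 0.31 (SE 0.22) and 0.46 (SE 0.22, 95% interval -0.059 to 0.99). None passed the threshold. Within slides, siRNA 2 differed from Control on probe 1 by 0.14 on slide 1 and 0.47 on slide 3. On probe 2 it differed by -0.18 on slide 1 and 0.76 on slide 3, so the sign was not the same on both slides. For both siRNAs together the differences were 0.09 and 0.077, and they turned to -0.024 and -0.088 without Control 3. The probes do not show which of the transcripts of Cdkn2a was read.

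Cdkn2b encodes p15, an INK4 inhibitor that transforming growth factor beta induces in epithelial cells. Probe 1 read -2.05, -0.79 and -1.78 in Control, -0.63, -1.81 and -1.66 in siRNA 1, and -0.90 and -1.70 in siRNA 2. Control 2, siRNA 1 replicate 1 and siRNA 2 replicate 1 were high, the other 5 arrays were low, and each group held arrays of both kinds. The range over 8 arrays was 1.42, or 2.67-fold in signal, and the range over the 3 Control arrays was 1.26, or 2.40-fold. Probe 2 read -3.78, -2.99 and -3.64 in Control, -2.72, -3.52 and -3.71 in siRNA 1, and -2.87 and -3.64 in siRNA 2, with the same 3 arrays high. The difference of both siRNAs from Control was 0.21 on probe 1 (SE 0.40, 95% interval -0.73 to 1.14) and 0.19 on probe 2 (SE 0.31, 95% interval -0.54 to 0.91).

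Within slides Cdkn2b also split. On probe 1 the siRNA arrays of slide 1 stood 1.42 and 1.15 above their Control, the siRNA 1 array of slide 2 stood at -0.87 from its Control, and those of slide 3 at -0.028 and 0.078. Without the arrays of slide 1 the difference of both siRNAs turned to -0.43 on probe 1 and -0.31 on probe 2, and without Control 1 alone it was -0.050 on probe 1.

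Cdkn2c encodes p18 and was close to background. Its probe read -5.77, -5.40 and -6.08 in Control, -4.86, -5.77 and -5.57 in siRNA 1, and -5.53 and -5.51 in siRNA 2, and on Control 1 it was not well above background, leaving 7 of 8 arrays. The siRNA 1 replicate 1 array stood apart at the top, and the other arrays overlapped. The difference of both siRNAs was 0.29 (SE 0.24, 95% interval -0.27 to 0.84). It was 0.073 with normexp and quantile normalization, 0.12 without Control 3, 0.15 without siRNA 1 replicate 1 and 0.46 without Control 2.

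**Figure D3:**
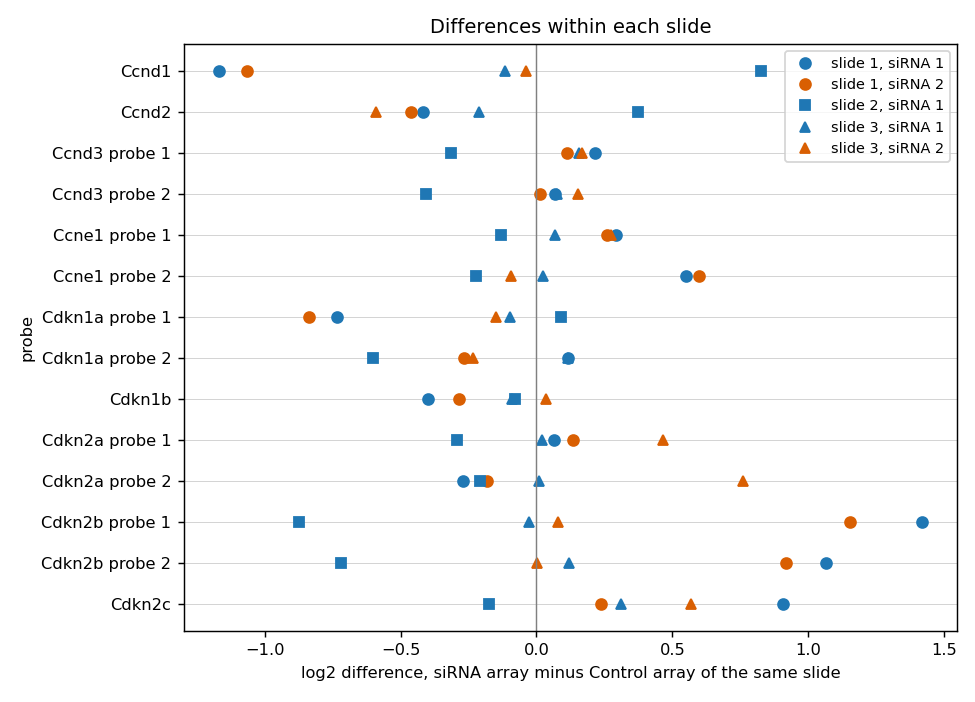
Difference of each siRNA array from the Control array of the same slide (horizontal axis, log2 scale) for the 14 tested probes, with symbols for slides and colours for siRNAs. For Ccnd1 and both Cdkn2b probes the slide 1 values and the slide 2 value lie on opposite sides of 0 and the slide 3 values lie near 0.

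The spread of Ccnd1 and Cdkn2b between arrays was large for this array set. The SD within groups was 0.637 for Cdkn2b probe 1, 0.515 for Ccnd1 and 0.491 for Cdkn2b probe 2, above 95.8%, 93.0% and 92.1% of the tested probes, whose median was 0.169. For Cdkn1b it was 0.108, above 25.9% of them. The same 3 arrays, Control 2, siRNA 1 replicate 1 and siRNA 2 replicate 1, lay all at the upper or all at the lower end of the 8 arrays for 6 of 14 member probes from 5 genes. They were the lowest for Ccnd1 and Cdkn1a probe 1, and the highest for Ccnd3 probe 1, Ccne1 probe 2 and both Cdkn2b probes. Over all probes 19.8% did so (5408 of 27372), so the pattern was not limited to these genes. The 3 arrays came from 3 groups and 2 slides, were noticed after their values were seen, and are not a group of the study. The first principal component of all arrays, with 40.7% of the variance, set the slide 1 arrays apart, at 25.5 to 33.0 against -24.1 to -12.1 for the others, and Control 2 lay at -15.7, away from the other two of the 3. On the second, with 25.0%, the 3 arrays scored -27.5, -21.3 and -8.88, and Control 1 scored 35.6. The 3 arrays were also at one end for 5 of 12 pluripotency markers, 0 of 8 mesoderm, 0 of 11 endoderm and 2 of 12 fibroblast markers. Esrrb, Klf4, Sox2 and Zfp42, pluripotency factors or their markers, were highest on them, with Zfp42 at 2.45, 3.30 and 2.52 there and at 1.50 to 2.15 on the others, and Dnmt3b, a DNA methyltransferase, was lowest. Pou5f1 and Nanog, also pluripotency markers of that list, did not set the 3 arrays apart. The part of these markers in the members' pattern was not tested, nor was its cause. Slide 1 against the other slides within groups gave 0 of 14 member probes past an adjusted p of 0.05, against 5.28% of all probes.

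**Figure D4:**
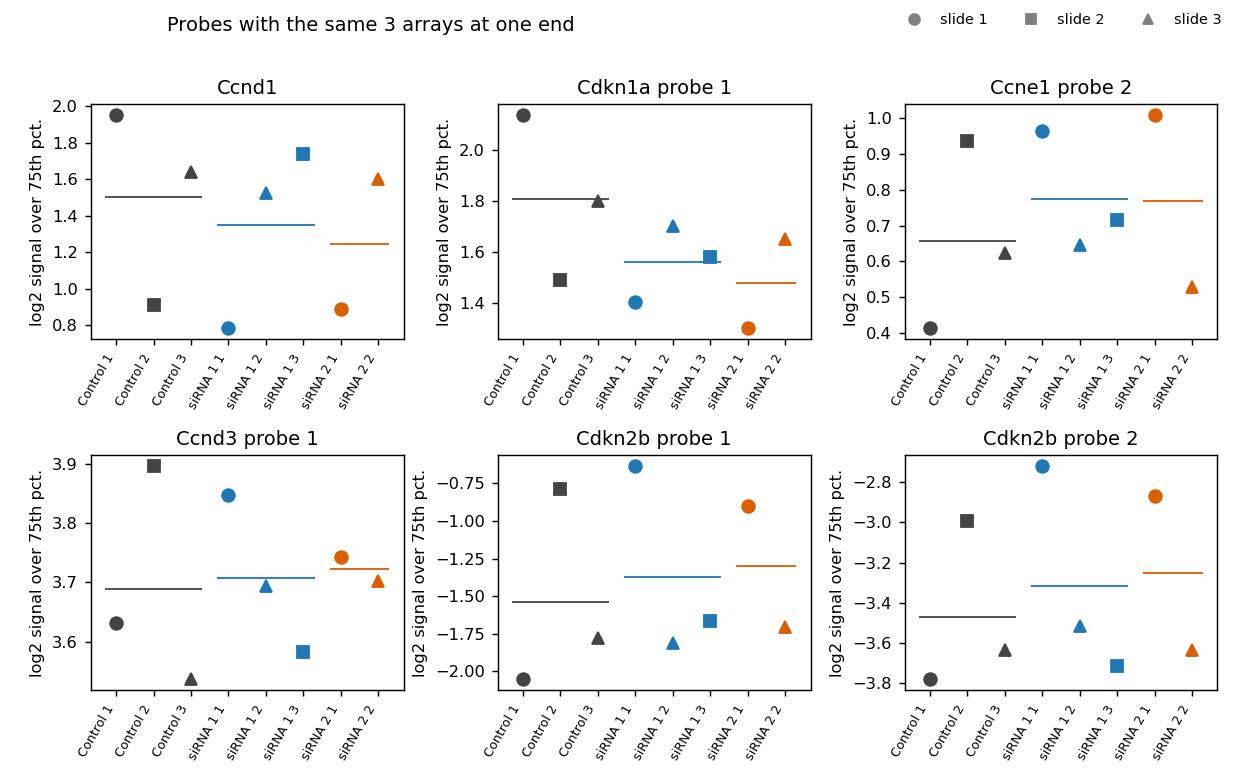
Level (vertical axes, log2 of signal over the 75th percentile of that array) for the 6 probes on which the same 3 arrays lie at one end, with a point for each array, symbols for slides, colours for groups and lines for group means. Control 2, siRNA 1 replicate 1 and siRNA 2 replicate 1 are lowest for Ccnd1 and Cdkn1a probe 1 and highest for the other 4 probes.

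For each gene the named probe with the most similar pattern over the 8 arrays was sought among 20249 probes, with Pearson's r as the measure. These values share arrays and scaling, and are given as a description. Ccnd1 was closest to Adgra3, an adhesion G protein-coupled receptor, with r = 0.997, and 204 probes had r over 0.95 with it. Adgra3 read 1.44, 0.82 and 1.23 in Control, 0.74, 1.14 and 1.31 in siRNA 1, and 0.83 and 1.24 in siRNA 2, with the same 3 low arrays as Ccnd1. Cdkn2b probe 1 was closest to Btg1, an antiproliferative gene, with r = 0.995, and 231 probes passed 0.95. Ccnd2 was closest to B9d1 with r = 0.982, and Ccnd3 probe 1 to Prkca with r = 0.979. Ccne1 probe 1 was closest to Vps13a with r = 0.985, and Cdkn1a probe 1 to Peg13 with r = 0.978. Cdkn2a probe 1 was closest to Npb with r = 0.964, Cdkn2c to Tet2 with r = 0.962, and Cdkn1b to Mmgt2 with r = 0.948.

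The other genes of the pathway were counted from lists, with 1 probe per gene, the brightest, over 22422 genes or unnamed accessions. For both siRNAs against Control 0 members of any list passed the adjusted threshold, and over all of these the median difference was 0.0072, with 52.9% higher. The 10 CDKs and other inhibitors gave 4 higher and 6 lower values with a median of -0.0020. Ccnh, the cyclin of the CDK-activating kinase, read -0.76, -0.72 and -0.74 in Control, -0.91, -1.04 and -0.99 in siRNA 1, and -0.80 and -0.90 in siRNA 2. All siRNA arrays of Ccnh lay below all Control arrays, and its difference was -0.18 (SE 0.069, unadjusted p = 0.0372 and adjusted p = 0.99997 in limma's fit). Cdkn1c, which encodes the CIP/KIP inhibitor p57, read 2.78, 2.97 and 2.80 in Control, 3.31, 2.89 and 2.82 in siRNA 1, and 3.37 and 3.29 in siRNA 2, so both siRNA 2 arrays and 1 siRNA 1 array lay above Control. Its difference was 0.48 for siRNA 2 (SE 0.16, unadjusted p = 0.0194) and 0.15 for siRNA 1 (SE 0.14), and its adjusted p for siRNA 2 was 0.99981 in limma's fit. The partner kinases Cdk2 and Cdk4 differed by -0.0027 (SE 0.14) and -0.0013 (SE 0.077).

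Of 13 genes of the retinoblastoma and E2F family, 5 were higher and 8 lower, with a median of -0.029. Tfdp2, a dimer partner of E2F, differed by 0.17 and E2f5 by -0.30. Rb1, the retinoblastoma gene, differed by 0.19 (SE 0.15). Of 26 E2F target genes of DNA replication, 14 were higher and 12 lower, with a median of 0.014, and the members with the smallest p were Chaf1a at -0.13, a chromatin assembly factor subunit, and Ung at 0.12, a uracil-DNA glycosylase. Of 17 tested S and G2/M cyclins and mitotic genes, 9 were higher and 8 lower, with a median of 0.0046. Foxm1, a mitotic transcription factor, differed by 0.08 and Cdc20, an activator of the anaphase-promoting complex, by 0.07.

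Of 14 genes of degradation and of the phosphatases of the G1/S switch, 7 were higher and 7 lower, with a median of -0.0060. Fbxo4, an F-box protein, differed by -0.15 and Skp1, a subunit of SCF ubiquitin ligases, by 0.09. Of 15 genes of the p53 axis, which controls Cdkn1a, 11 were higher and 4 lower, with a median of 0.029. Gdf15 differed by 0.18 and Zmat3 by -0.13, and Trp53 itself by -0.03 (SE 0.13). Of 15 tested upstream regulators, 7 were higher and 8 lower, with a median of -0.0058. Myc, a transcription factor that acts on several of these genes, differed by 0.19 (SE 0.15) and Foxo1 by -0.10.

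For each siRNA alone the members were counted again. Against Control siRNA 1 gave 4 of 9 members higher with a median of -0.070, beside 0.024 over all genes, and siRNA 2 gave 5 of 9 higher with a median of 0.035, beside -0.00085. These comparisons share the Control arrays. For siRNA 1 the smallest p in the lists was that of Ccnh at -0.24 (SE 0.077), then Tfdp2 at 0.23 (SE 0.090) and Chaf1a at -0.24 (SE 0.097). For siRNA 2 it was that of Cdkn1c, followed by Fbxo4 at -0.20 (SE 0.11). For siRNA 2 against siRNA 1 the S and G2/M list had 14 of 17 genes higher in siRNA 2 with a median of 0.056. Over all genes 42.4% were higher and the median was -0.026. In that list 0 genes passed the threshold or an unadjusted p of 0.05. It was the most one-sided list of this comparison. The members had 5 of 9 higher, the CDK list 6 of 10 and the retinoblastoma list 8 of 13. The degradation list had 7 of 14, the E2F targets 10 of 26, the p53 axis 7 of 15 and the upstream regulators 5 of 15. Genes of a list share arrays, so these counts are a description.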

How the data were processed

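The deposited scanner files hold intensity values, 44397 spots for each one-colour (Cy3) array. Per the file headers, the authors used Agilent Feature Extraction 10.7.3.1, whose processed intensity is already corrected for background. The flags for background and outliers are Feature Extraction's. A deposited value table holds log2 values of the same arrays, and it was used only as an alternative. Set against the scanner values, each column matched the log2 signal less the array's 75th percentile, centred on each probe's median, with column medians of -0.039 to 0.019, so scale, centring and direction are known. Its Control 2 and Control 3 columns followed each other's scanner file (r = 1.00, against -0.05 with their own). Replicate names here follow the scanner files. RMA is named, without a role, in the submitters' processing notes.

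Outlier spots were left out and the other spots of a probe averaged. Of 39429 probes, 26424 matched a symbol through RefSeq accessions. Where 2 probes match a gene, probe 1 is the brighter. Probes with a signal well above background on all arrays of 1 group or more were fitted with limma 3.58.1 (lmFit and eBayes, 5 residual degrees of freedom, R 4.3.3) over 3 groups. The exact permutation tests are two-sided and use the mean of the 5 siRNA arrays minus the Control mean. Limma's difference of both siRNAs is the equal-weight mean of the 2 siRNA groups minus Control. All probes of the 10 genes are named, and in each list the members with the smallest p. The fit was tested on simulated data. Members and lists were chosen with earlier results of these data known. Same-numbered arrays of different groups deviated together in 4 of 7 pairs (r of 0.26 to 0.72) and not in the other 3 (-0.10 to 0.048), so the numbers were not taken to pair the samples. With the value table's names for Control 2 and 3, number and slide coincide. Arrays of different groups on the same slide deviated together on slides 1 and 3, with r of 0.26 to 0.72. The pair of slide 2 had r = 0.013. The main fit leaves slide out, and the slide block is that pairing.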

Additional observations from a re-analysis of the deposited data

How the results depend on the processing

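For the 23 differences of member probes that were recomputed under 20 alternatives, 0 of 437 alternative values passed the threshold (smallest adjusted p 0.280 in limma's fit), 13 differences kept their direction throughout and 21 values changed sign. Probes called stayed at 0 except 1 for siRNA 2 against siRNA 1 when only the compared groups were fitted. Over all comparisons and alternatives, 497 to 3305 probes had an unadjusted p under 0.05, the most under array weights. Without the arrays of slide 1, the differences of both siRNAs from Control were 0.34 for Ccnd1, -0.046 for Ccnd3 probe 1, -0.18 for Ccne1 probe 2, 0.0011 for Cdkn1a probe 1, -0.43 and -0.31 for Cdkn2b probes 1 and 2, and that of siRNA 2 was 0.0069 for Cdkn1a probe 1. For Ccnd3 probe 1, normexp with quantile normalization gave -0.015 and the replicate block gave -0.0075. Among the 23 differences the replicate block changed no other direction, and the slide block changed none. Outside the 23, both blocks changed some signs. Between the siRNAs the replicate block turned Ccnd1 to 0.027, Ccnd3 probe 1 to -0.054 and Cdkn2b probes 1 and 2 to -0.065 and -0.074. For siRNA 2 against Control it turned Ccnd3 probe 1 to -0.035. The slide block turned Ccne1 probe 2 to 0.049 between the siRNAs and Ccnd3 probe 2 to 0.0036 for siRNA 2 against Control. Array weights gave 0.012 for Ccnd3 probe 2. Leaving out 1 array in turn moved Ccnd1 from -0.50 to 0.021, Ccnd3 probe 1 from -0.049 to 0.13, Ccnd3 probe 2 from -0.10 to 0.046, Ccne1 probe 2 from -0.0080 to 0.25, Cdkn2a probe 1 from -0.024 to 0.16, Cdkn2a probe 2 from -0.088 to 0.26, Cdkn2b probe 1 from -0.050 to 0.58 and Cdkn2b probe 2 from -0.0052 to 0.43. The sign changed without Control 1 for Ccnd1, Ccnd3 probe 1, Ccne1 probe 2 and Cdkn2b probe 1, without Control 2 for Ccnd3 probe 2, without Control 3 for Ccnd3 probe 1 and both Cdkn2a probes, without siRNA 1 replicate 1 for Ccnd3 probe 1, and without siRNA 2 replicate 1 for Ccne1 probe 2 and Cdkn2b probe 2. The cause was not tested. All scalings moved the median of all probes by less than 0.1. The 8 arrays limit precision, and Ccne2 and, on Control 1, Cdkn2c were not well above background.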
